A study of Saccharomyces cerevisiae with 3 samples.

Results

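Aminoacyl-tRNA synthetases attach each amino acid to its transfer RNA, the step that fixes the genetic code before a codon is ever read. Budding yeast (Saccharomyces cerevisiae) encodes all of them in the nucleus: most amino acids have a synthetase for the cytosol and a separate one that is imported into mitochondria, where it serves the small set of proteins made on mitochondrial ribosomes, while a few genes supply both places. Trimethylation of histone H3 at lysine 4 (H3K4me3) is known from nucleosomes at the beginning of transcribed genes and dimethylation (H3K4me2) from nucleosomes further into them, both placed by the COMPASS complex. The 32 genes described here were chosen by name, 18 cytosolic and 14 mitochondrial synthetase genes of 6002 nuclear protein-coding genes, and the rule that lists them uses no measured value. All 32 were found in the gene table.

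The chromatin came from BY4741, a haploid laboratory strain of mating type a that cannot make histidine, leucine, methionine or uracil, grown to mid-log phase in rich glucose medium (YEPD) and fixed with formaldehyde for 20 minutes. Nuclei were digested with micrococcal nuclease, which cuts between nucleosomes, and fragments bound by an antibody to either mark were sequenced. The series holds 3 samples from this strain and medium, namely 1 H3K4me2 library, 1 H3K4me3 library and 1 input taken without antibody; the data are the authors' lists of enriched regions (peaks) for both marks. The H3K4me3 list holds 3714 peaks and the H3K4me2 list 2998, with 1644589 and 1492318 sequenced tags inside them; the full depth of the libraries is unknown. With 1 library per mark there is no replicate error and no test, so every comparison below is a description of these libraries. A gene without a peak is a gene where none was called (the lowest score kept was 50.09 for H3K4me3 and 50.02 for H3K4me2), which does not show that the mark is absent. In a bulk population, fewer cells with the mark, less of it per cell and fewer nucleosomes at a place cannot be told apart.

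Each of the 18 listed cytosolic synthetase genes carried H3K4me3 over its whole beginning. A gene counted as marked at its start when peaks covered at least 50% of the first 500 bp from the start codon. By this rule 18 of 18 cytosolic genes had H3K4me3, against 64.6% of all nuclear protein-coding genes and 71.0% of the 2778 genes whose lengths lie between those of the shortest and the longest member (1140 and 3315 bp). In all 18 the peak covered 100% of the window, which was the case for 62.6% of genes of those lengths. Of the mitochondrial synthetase genes 9 of 14 were marked by the same rule (64.3%), a share near both backgrounds. The 5 others were MSE1, MSF1, MSM1, SLM5 and AIM10, and in each of them 0% of the window lay under an H3K4me3 peak. The cytosolic share thus lay above that of genes of these lengths, and the mitochondrial share did not. The gap was smaller when peaks were trimmed to 500 bp about the summit. Then 10 of 18 cytosolic and 7 of 14 mitochondrial starts were marked (55.6 and 50%). In that setting a member was marked only where a summit lay in its first 500 bp, so summit position sets the count as well as width. Cytosolic summits lay from 236 bp (ALA1) to 672 bp (WRS1) after the start codon. The share of all genes with trimmed peaks was not computed.

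**Figure D1:**
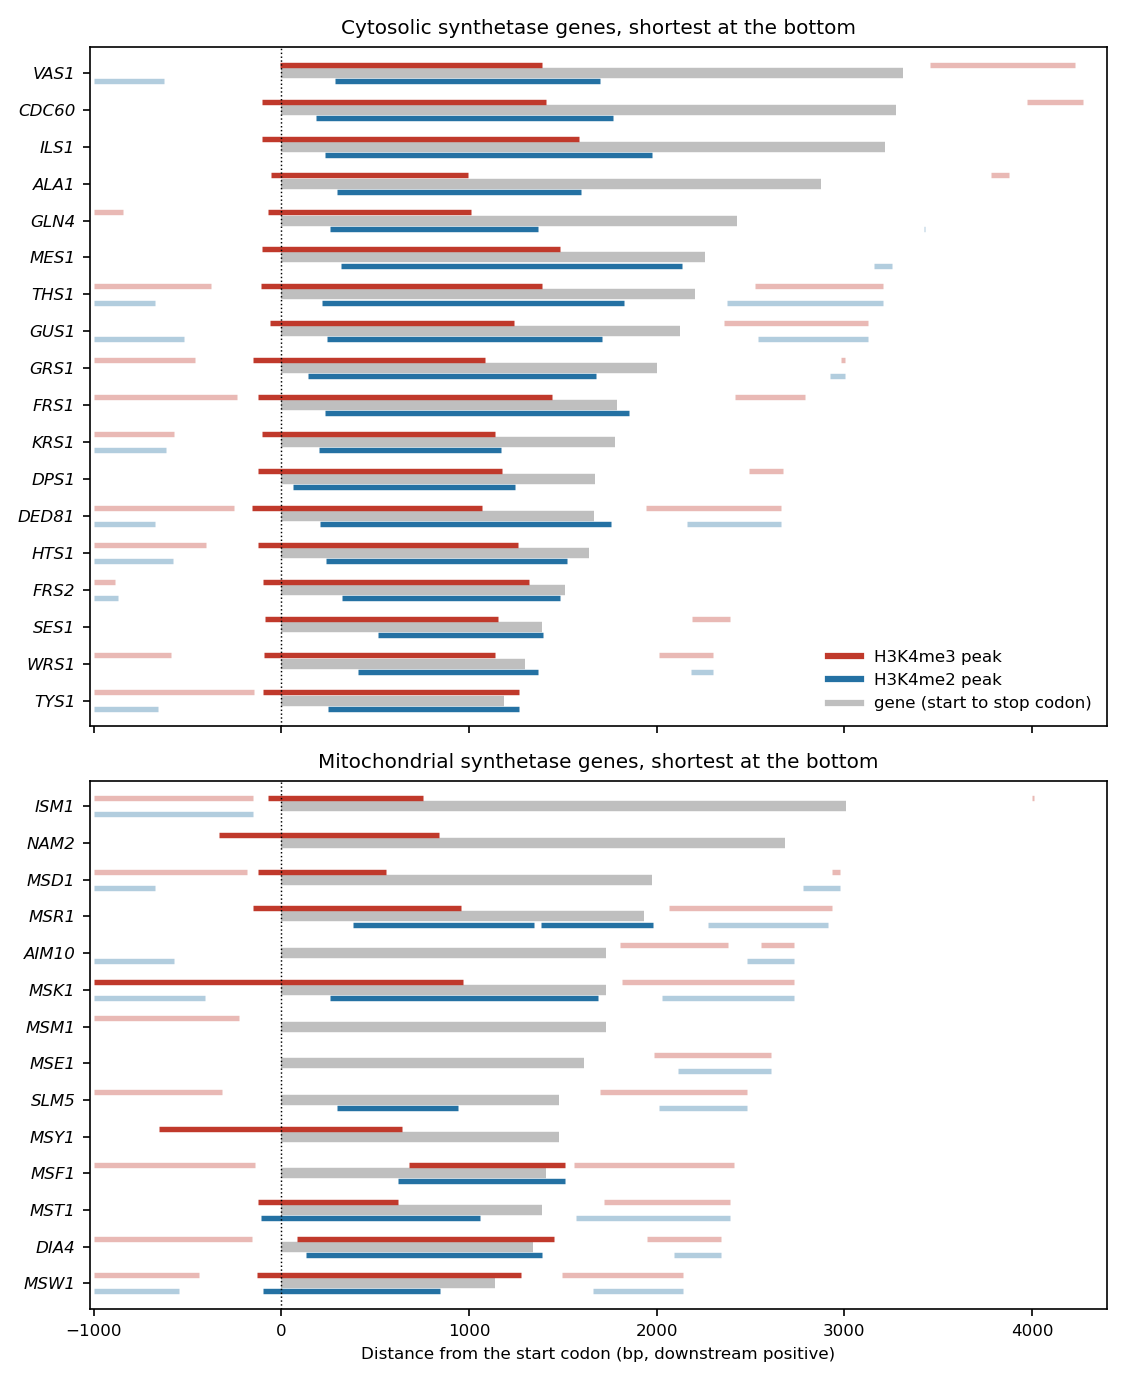
Peaks of H3K4me3 (red) and H3K4me2 (blue) along the 18 cytosolic and 14 mitochondrial synthetase genes (grey, start to stop codon), by distance from the start codon in bp; pale peaks do not touch the gene, and the map ends 1000 bp beyond each gene. In all 18 cytosolic genes a red bar begins just before the start codon and a blue bar begins inside the gene, while MSE1, MSM1 and AIM10 have no peak over any base of the gene.

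The H3K4me3 peaks of the cytosolic genes had nearly the same upstream edge. They began between 154 bp (DED81, asparaginyl-tRNA synthetase) and 5 bp (VAS1, valyl-tRNA synthetase) before the start codon, with a median of 102 bp before it. Among the 1971 genes of the members' lengths with H3K4me3 at the start, the quartiles of this edge were 185 and 97 bp before the start codon. The downstream edges lay further into the gene than usual, from 993 bp in ALA1 (alanyl-tRNA synthetase) to 1586 bp in ILS1 (isoleucyl-tRNA synthetase), with a median of 1251 bp. In the genes of those lengths the median downstream edge was at 891 bp and the upper quartile at 1096.5 bp, so the lower quartile of the cytosolic genes, 1138.5 bp, lay beyond that upper quartile. In the mitochondrial genes with H3K4me3 at the start the downstream edge ran from 560 to 1455 bp with a median of 840 bp, and the ranges of the groups overlapped.

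The tags of the cytosolic H3K4me3 start peaks are not shared with another gene start. In 0 of 18 did the peak also meet the 50% rule in the start window of another gene, and 7.76% of marked genes of the same lengths shared theirs, a share so low that 0 of 18 is near it. A divergently transcribed neighbour lies upstream of 14 of the 18, against 50.1% of genes of those lengths. The divergent neighbour of DED81 is itself a synthetase gene, YHR020W (prolyl-tRNA synthetase), 437 bp away. A separate peak lay over each of these neighbours, 3.04-fold with 659 tags over DED81 and 3.74-fold with 908 tags over YHR020W. Of the mitochondrial genes, MSK1 (lysyl) shared its H3K4me3 peak with the divergent gene MLF3, and MSY1 (tyrosyl) shared its peak with MGR2. The summit of the MSK1 peak lay 583 bp before the start codon of MSK1, on the side of MLF3, so the tags of that peak are not those of MSK1 alone.

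**Figure D2:**
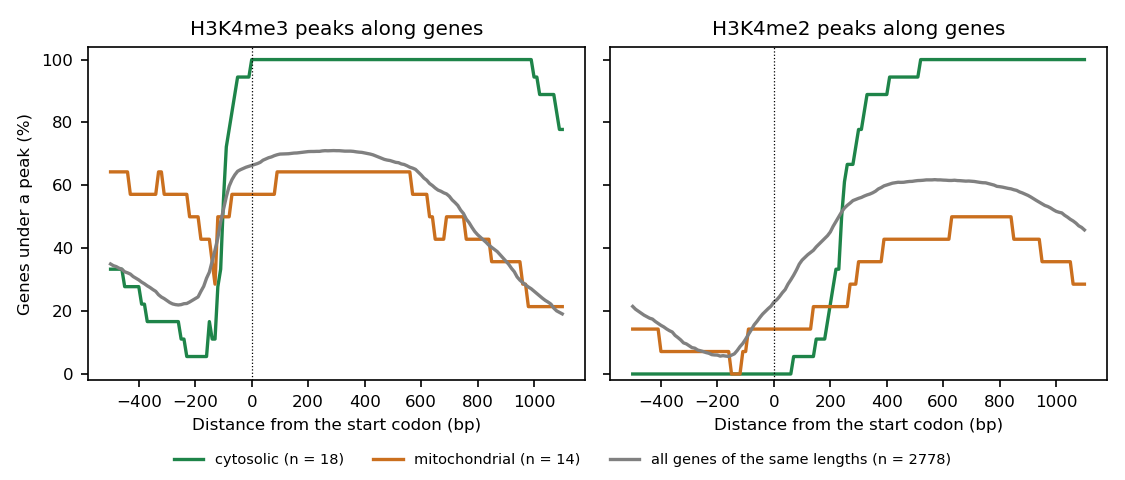
Share of genes under an H3K4me3 peak (left) or an H3K4me2 peak (right), in percent, by distance from the start codon in 10 bp steps, for the 18 cytosolic and 14 mitochondrial synthetase genes and for 2778 genes of the same lengths. H3K4me3 covers 100% of the cytosolic genes from the start codon to 990 bp, and H3K4me2 covers 0% of them at the start codon and 100% from 520 bp to 1100 bp, where the plot ends.

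H3K4me2 peaks began inside the cytosolic synthetase genes, and none was called over their start codons. All 18 had H3K4me2 over some part of the gene, against 64.0% of genes of those lengths, and 0 of 18 had it over the start codon, against 22.9%. In 17 of them the H3K4me2 peak reached into the first 500 bp, beginning between 64 bp (DPS1, aspartyl-tRNA synthetase) and 407 bp (WRS1, tryptophanyl-tRNA synthetase) after the start codon, with a median of 237 bp. In SES1 (seryl-tRNA synthetase) it began at 515 bp. The same edge had a median of 67 bp in the 1713 genes of those lengths whose H3K4me2 reached into the window. Because the mark starts so close to the middle of the window, the count of marked starts splits the cytosolic genes by small differences: 11 of 18 reached 50% of the window (43.5% of all genes, 52.8% of those lengths), with TYS1 at 50.4% and GUS1 at 51.6% just above and GLN4 at 48.0% and VAS1 at 43.2% just below. Of the mitochondrial genes 3 of 14 reached it, namely MST1, MSW1 and DIA4. The larger share in the cytosolic group depends on the window. It was below the mitochondrial share in the first 300 bp, where 2 cytosolic and 3 mitochondrial genes were marked. In the first 1000 bp it was above it, with 17 and 6. The shares of all genes in these other windows were not computed.

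In cytosolic synthetase genes the marks had the usual order and a larger median distance than in genes of their lengths. Each of the 18 was touched by exactly 1 peak of each mark, an arrangement found in 5 of 14 mitochondrial genes and in 55.5% of genes of those lengths. Taking the mean position of the bases that each mark covered in the gene, H3K4me2 came after H3K4me3 in 18 of 18, and this order was seen in 94.7% of the genes of those lengths that hold both marks, so the order itself is no feature of the group. The distance had a median of 301.75 bp (67.5 bp in DPS1 to 482.5 bp in MES1, methionyl-tRNA synthetase) against 184.5 bp in those genes, whose upper quartile was 286 bp. Of the 6 mitochondrial genes with both marks, 4 had this order. In MSF1 the mean position of H3K4me2 lay 29.5 bp upstream (-29.5 bp), and in MSW1 it lay 148 bp upstream (-148 bp).

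Over the whole gene the cytosolic synthetases were again the more covered group. H3K4me3 covered at least 50% of the gene in 13 of 18 cytosolic and 4 of 14 mitochondrial genes (44.0% of all genes, 35.6% of genes of the members' lengths). For H3K4me2 the counts were 14 of 18 and 6 of 14 (39.6% of all genes, 46.8% of those lengths). In bases, H3K4me3 covered 994 to 1587 bp of a cytosolic gene with a median of 1213 bp, and 0 to 1255 bp of a mitochondrial gene with a median of 687 bp; genes of those lengths had a median of 755 bp. The H3K4me2 medians were 1358 bp in the cytosolic genes, 324 bp in the mitochondrial genes and 885 bp in genes of those lengths. H3K4me2 lay over at least 1 bp of 7 of 14 mitochondrial genes, against 64.0% of genes of those lengths. The other mitochondrial genes had 0 bp, and their median falls in the gap between 0 bp and the 648 bp of SLM5. TYS1, the shortest cytosolic gene with 1185 bp, lay whole under H3K4me3, and VAS1, the longest with 3315 bp, to 42.0%. Over the last 500 bp, H3K4me2 met the 50% rule in 8 of 18 cytosolic genes and 4 of 14 mitochondrial ones (31.6% of those lengths), and H3K4me3 in 4 and 3 (13.1%).

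Peaks over cytosolic synthetase starts were also denser in tags. Levels are given as tags per kb of peak within the H3K4me3 list, together with the authors' fold enrichment. The cytosolic start peaks held 430 to 593 tags per kb with a median of 495, and the mitochondrial ones 300 to 455 with a median of 374. Start peaks of genes of those lengths had a median of 413 tags per kb, with quartiles of 371 and 461. Only MSK1, with its shared peak, reached into the cytosolic range, and the mitochondrial peaks that are not shared ended at 408 (DIA4), below ALA1 at 430. In fold enrichment the cytosolic peaks ran from 2.92 to 3.88 (median 3.36) and the mitochondrial from 2.26 to 3.55 (median 2.88), with 3.09 as the median for those lengths, and here the groups overlapped.

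**Figure D3:**
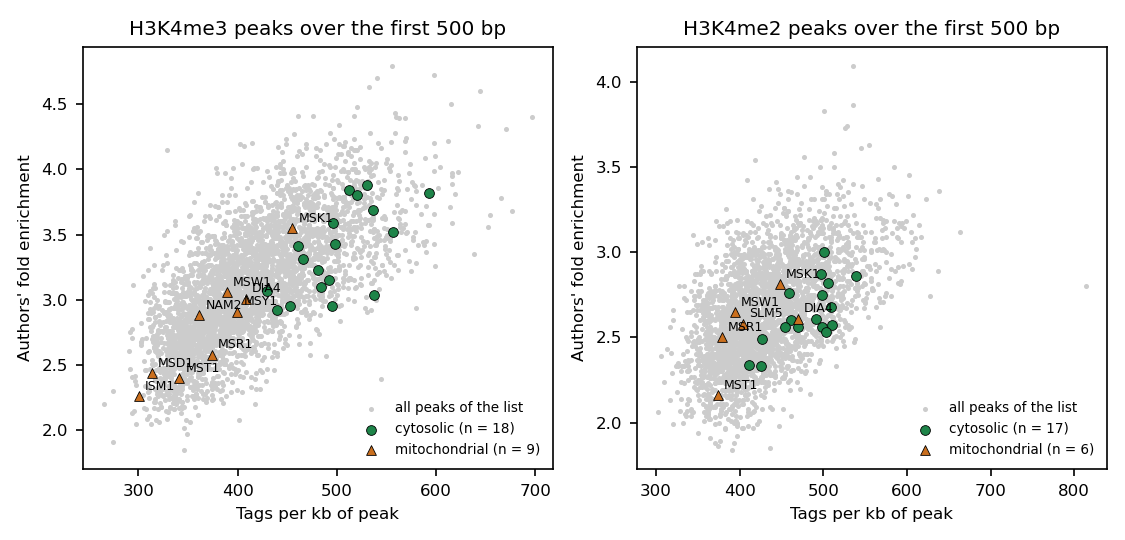
Tags per kb (horizontal) and the authors' fold enrichment (vertical) of peaks that overlap the first 500 bp of cytosolic (green circles) and mitochondrial (orange triangles, named) synthetase genes, over all peaks of the list (grey), for H3K4me3 (left) and H3K4me2 (right). For H3K4me3 the cytosolic peaks start at 430 tags per kb and MSK1 alone among the mitochondrial ones lies above that; for H3K4me2 the groups overlap.

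The strongest cytosolic H3K4me3 peak by fold was that of FRS2, the alpha subunit of phenylalanyl-tRNA synthetase (YFL022C, chromosome VI, 93499 to 95010, minus strand), at 3.88-fold. It held 754 tags (exact 95% Poisson interval 701 to 810) and its fold was at the 95.3 percentile of the list. FRS1, the beta subunit of the same enzyme, was at 3.69-fold with 840 tags. CDC60, the cytosolic leucyl-tRNA synthetase (YPL160W, chromosome XVI, 246990 to 250262, plus strand), followed FRS2 at 3.84-fold with 776 tags. TYS1, tyrosyl-tRNA synthetase (YGR185C, chromosome VII, 866336 to 867520, minus strand), came next at 3.82-fold and had the highest tag density of the members, 593 tags per kb. At the other end GLN4 (glutaminyl) had 2.92-fold and 477 tags, and SES1 and WRS1 each had 2.95-fold. Even the weakest of these lay at the 35.1 percentile of fold in the H3K4me3 list.

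Among mitochondrial genes MSK1 (YNL073W, chromosome XIV, 488386 to 490116, plus strand) had the highest H3K4me3 fold, 3.55 with 1132 tags, in the peak shared with MLF3. MSW1, the tryptophanyl enzyme (YDR268W, chromosome IV, 1004004 to 1005143, plus strand), had 3.06-fold with 547 tags and was covered by H3K4me3 from end to end, the only mitochondrial member of which this is true. DIA4, the seryl enzyme (YHR011W, chromosome VIII, 127780 to 129120, plus strand), had 3.01-fold with 559 tags. Its peak was placed unlike the others, beginning 86 bp after the start codon with its summit at 1169 bp, near the end of a gene of 1341 bp. MSY1 stood at 2.91-fold and NAM2, the leucyl enzyme that also acts in intron splicing, at 2.88-fold. The weakest were MSR1 (arginyl, 2.58-fold), MSD1 (aspartyl, 2.44-fold), MST1 (threonyl, 2.40-fold) and ISM1 (isoleucyl, 2.26-fold). The peaks of MSD1 and ISM1 had scores of 50.33 and 54.74, close to the lowest score of the list, with 215 tags (187 to 246) and 249 tags (219 to 282).

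The count of marked mitochondrial starts depends on the limit set on peaks. With a score of at least 100 it was 7 of 14, and with peaks below the median fold of the list left out it was 1 of 14, while the cytosolic counts were 18 and 13. MSW1 and DIA4 lay just below that median of 3.09. The shares of all genes under these limits were not computed, so these counts have no background beside them.

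The 5 mitochondrial genes without H3K4me3 at the start were not alike. MSE1 (glutamyl, YOL033W, chromosome XV, 263475 to 265085), MSM1 (methionyl, YGR171C, chromosome VII, 840824 to 842551) and AIM10 (the likely prolyl enzyme, YER087W, chromosome V, 330576 to 332306) had no base under either mark, a class that held 20.7% of genes of those lengths and 0 of 18 cytosolic genes. Upstream of MSM1 an H3K4me3 peak ended 226 bp before the start codon, and within 1000 bp upstream of MSE1 neither mark had a peak. MSF1 (phenylalanyl, YPR047W, chromosome XVI, 657529 to 658938) carried both marks in its far part and none in the window. There H3K4me3 (2.32-fold, 286 tags) began 682 bp and H3K4me2 (2.85-fold, 394 tags) 623 bp after the start codon, and both ran past the stop codon of this 1410 bp gene. SLM5 (asparaginyl, YCR024C, chromosome III, 160744 to 162222) had H3K4me2 alone, from 295 to 942 bp at 2.58-fold with 262 tags. That peak covered 41.0% of its start window, below the limit. By the start rule these 5 genes form the class with neither mark, which takes in 23.7% of genes of those lengths.

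For H3K4me2 the strongest cytosolic start peaks were those of DPS1 (3.0-fold, 592 tags), KRS1 (lysyl, 2.87-fold, 484 tags) and DED81 (2.86-fold, 839 tags). Of the mitochondrial genes that met the start rule, MSW1 had 2.65-fold with 372 tags, DIA4 2.61-fold with 591 tags and MST1 2.16-fold with 437 tags. MSK1 had 2.81-fold with 640 tags over 47.8% of the window, just below the limit. The groups overlapped in H3K4me2 fold. A separation as in H3K4me3 tag density was not seen, since cytosolic peaks over the window held 411 to 539 tags per kb and mitochondrial ones 374 to 469. MSD1, MSY1, ISM1 and NAM2 had H3K4me3 at the start and no H3K4me2 over any base of the gene, and no cytosolic gene was of that kind. Among genes of those lengths, 72.7% had H3K4me3 over at least 1 bp of the gene and 57.5% had both marks over at least 1 bp. Genes with H3K4me3 and no H3K4me2 thus occur among them too. The share with H3K4me3 at the start and no H3K4me2 in the gene was not computed.

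Pairs of genes for the same amino acid allow the groups to be compared with the amino acid held equal. Among 12 such pairs the cytosolic gene had more bases under H3K4me3 in 11, with a median difference of 604.5 bp, and more bases under H3K4me2 in 10, with a median difference of 875 bp. The cytosolic gene was also the longer one in 10 of the 12, by a median of 172.5 bp. As a percentage of the gene, H3K4me3 was higher in the cytosolic gene in 10 pairs and H3K4me2 in 8. Over the first 500 bp, H3K4me3 coverage was equal in 7 pairs and higher in the cytosolic gene in 5. H3K4me2 coverage there was higher in the cytosolic gene in 9 pairs. It was higher in the mitochondrial gene in 3, MSW1 (100% against 18.6% in WRS1), DIA4 (73.4% against 0% in SES1) and MST1 (100% against 56.4% in THS1). Tag density of the H3K4me3 start peak was higher in the cytosolic gene in all 8 pairs with a peak over both starts, by 44.9 to 207 tags per kb. In fold the cytosolic gene was higher in 5 of those 8. The 8 pairs include those of MSK1 and MSY1, whose peaks also cover the starts of MLF3 and MGR2.

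In MES1 and MSM1 and in GUS1 and MSE1 the mitochondrial gene had neither mark. MES1 had 1488 bp under H3K4me3 and 1819 bp under H3K4me2, and MSM1 had 0 bp of either. GUS1 (glutamyl-tRNA synthetase) had 1241 and 1470 bp, and MSE1 had 0 bp of either. For isoleucine ILS1 had 1587 bp of H3K4me3 and 1743 bp of H3K4me2, while ISM1 had 758 and 0 bp, in genes of 3219 and 3009 bp. For leucine CDC60 had 1412 and 1583 bp and NAM2 had 841 and 0 bp. The same direction was seen for aspartate (DPS1 1175 and 1182 bp, MSD1 561 and 0 bp) and for tyrosine (TYS1 1185 and 937 bp, MSY1 646 and 0 bp).

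In other pairs the mitochondrial gene carried H3K4me2 as well, over fewer bases than the cytosolic one. THS1 (threonyl) had 1389 bp of H3K4me3 and 1610 bp of H3K4me2, and MST1 had 623 and 1059 bp. FRS2 had 1323 and 1164 bp, and MSF1 had 728 and 787 bp, which in MSF1 lay beyond the start window. DED81 had 1072 and 1461 bp, against 0 and 648 bp in SLM5. The remaining pairs were close or went the other way. WRS1 and MSW1 had nearly equal H3K4me3, 1141 and 1140 bp. SES1 had 1155 bp of H3K4me3 and 874 bp of H3K4me2, fewer than DIA4 with 1255 and 1208 bp. KRS1 had more H3K4me3 (1139 against 971 bp) and less H3K4me2 (974 against 1429 bp) than MSK1.

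**Figure D4:**
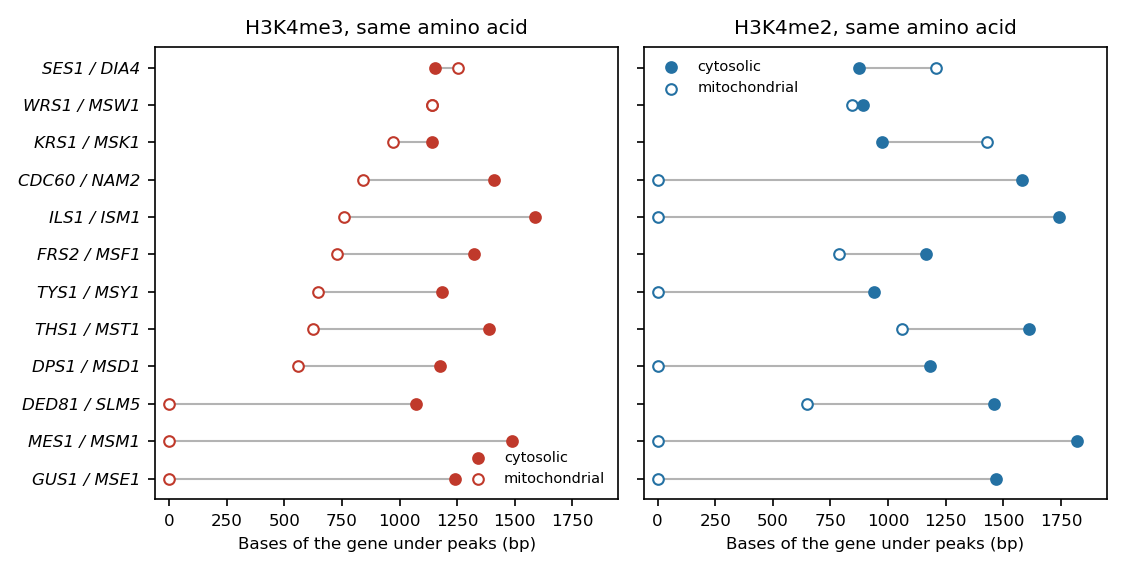
Bases of the gene under H3K4me3 peaks (left) and H3K4me2 peaks (right), in bp, for 12 pairs of a cytosolic (filled) and a mitochondrial (open) synthetase gene for the same amino acid. The filled point lies to the right in 11 pairs for H3K4me3 and in 10 for H3K4me2, with SES1 and DIA4 reversed for both marks.

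ALA1, GRS1, HTS1 and VAS1 each supply the enzyme to both compartments from a single gene, and they were marked like the other cytosolic genes. Their H3K4me3 start peaks stood at 3.07-fold (ALA1, 452 tags), 3.23-fold (GRS1, glycyl, 596 tags), 3.15-fold (HTS1, histidyl, 683 tags) and 3.31-fold (VAS1, 650 tags). All 4 lay within the range of the cytosolic group and below its median of 3.36. H3K4me2 met the start rule in GRS1 (71.4% of the window) and HTS1 (52.6%) and stayed below it in ALA1 (40.8%) and VAS1.

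Synthetases fall into class I and class II, families with unrelated catalytic folds. H3K4me3 was present at the start of 8 of 8 cytosolic class I and 10 of 10 cytosolic class II genes. Over the whole gene it reached 50% in 4 of 8 and 9 of 10, and the class I genes were longer, with a median of 2343 bp against 1725 bp. In bases under H3K4me3 class I had the higher value, with a median of 1316 bp in class I and 1165 bp in class II. Both marks at the start were found in 4 and 7 of these genes, against 47.4% of genes of the members' lengths.

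Of 4 other synthetase genes that are not among the 32, 3 had H3K4me3 at the start. The share was 64.6% over all nuclear protein-coding genes and 71.0% over genes of the members' lengths, so this count is near the background. YHR020W, YDR341C (cytosolic arginyl-tRNA synthetase, 3.6-fold H3K4me3) and CRS1 (cysteinyl-tRNA synthetase, YNL247W, 3.13-fold) had H3K4me3 over 100% of the start window. GRS2, a second copy of GRS1 from an ancient duplication, had no H3K4me3 over the gene and H3K4me2 over 84.6% of the window (2.31-fold, score 54.75). ARC1, the cofactor that binds the methionyl and glutamyl enzymes, carried both marks (H3K4me3 3.32-fold). Placed beside their counterparts, YDR341C had H3K4me3 over 50.2% and H3K4me2 over 95.2% of the gene, and MSR1 had 49.5 and 78.2%. YHR020W had 75.5 and 84.0%, and AIM10 had 0% of either.

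Of 11 other genes of mitochondrial translation 6 had H3K4me3 at the start, 6 had H3K4me2 and 4 had neither. Over all nuclear protein-coding genes these shares were 64.6, 43.5 and 30.3%, so the counts say nothing particular about this list. The elongation factor gene TUF1 (3.34-fold H3K4me3) and PET112 (3.16-fold) and GTF1 (3.62-fold), subunits of the amidotransferase that makes mitochondrial glutaminyl-tRNA, carried both marks. HER2, the remaining subunit, the ribosome recycling factor gene RRF1, the initiation factor gene IFM1 and AIM23 carried neither. FMT1, which formylates the mitochondrial initiator methionyl-tRNA, had H3K4me2 alone. MEF1 (2.76-fold H3K4me3) and MEF2 (3.04-fold) also had both marks at the start, and MRF1 (2.16-fold) had H3K4me3 alone there. Of 8 genes that handle transfer RNA in the cytosol, 4 had H3K4me3 at the start (LOS1, MSN5, CCA1 and TPT1) and 2 had H3K4me2. The other 4, TRL1, GCN2, TEF1 and TEF2, had neither mark. This list was marked less often than all genes, but 8 genes are too few to read that as a difference. TEF1 and TEF2 are near-identical copies, and the placing of reads that match both is not stated in the labels.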

How the data were processed

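Sample titles gave the groups. The peak caller MACS 1.4.2, CASAVA 1.8.2 and build sacCer3 are named per the submitters' processing notes. Settings, aligner and control are not given in the sources, and the authors deposited 1 peak list per library. Per the file headers each peak has a tag count, not normalised, a fold enrichment (a ratio over a background that is not named) and a p-value column; all its deposited values exceed 50, so it was read as the MACS score, -10 times log10 of p. Lists of different depth were not compared in fold or tags. The input has no list and was not analysed here.

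Gene spans, start to stop codon, came from a RefSeq table of R64, the assembly that sacCer3 names; strand was read from the W or C of the systematic name. Coverage by peaks was computed with Python 3.11.15, numpy 2.4.6 and pandas 2.3.3, and Poisson intervals with scipy 1.17.1; these cover counting error of the tags only. A start peak is the peak with most bases in the first 500 bp. Functions were tested on simulated peaks at 200 real genes, all 200 recovered. The rule for the members uses names alone, but members, lists and rules were chosen with earlier results of these data known. Members were named in full by rule: per mark and group the 3 start peaks of highest fold, all members without H3K4me3 at the start, the genes serving both compartments and the pairs. The upstream neighbour is the nearest protein-coding gene that does not overlap. Promoter motifs had been planned and were not analysed here.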

Additional observations from a re-analysis of the deposited data

How the results depend on the processing

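Under 10 alternatives the H3K4me3 share at the start was higher in cytosolic than in mitochondrial genes each time, by 5.56 to 65.1 percentage points. These are not independent checks, since any overlap, 80% coverage and the other windows gave the main counts again, 18 and 9. For H3K4me2 at the start the cytosolic share was higher under 6 of 10 and lower under 4 (-14.3 to 54.0 points). Over the whole gene it was higher under 5 of 6 for each mark and equal, at 0, with 500 bp peaks, a single one of which cannot fill 50% of any of these genes. Of 72 alternative counts 41 stayed within 1.5 times the reported one. With peaks of 500 bp around the summit, H3K4me3 marked 10 cytosolic starts and H3K4me2 1 start in each group, and whole-gene counts were 0 for both marks and groups. Without peaks below the median fold of each list, H3K4me3 marked 1 mitochondrial start and 1 whole gene, and H3K4me2 marked 5 cytosolic and 1 mitochondrial starts and 7 and 3 whole genes. A score of at least 100 left H3K4me2 at 1 mitochondrial start and 3 whole genes. With 80% coverage the whole-gene counts were 5 and 2 for H3K4me3 and 3 and 2 for H3K4me2, and H3K4me2 marked 1 cytosolic start. With any overlap, H3K4me2 marked 17 and 6 starts and H3K4me3 touched 10 mitochondrial genes. H3K4me2 marked 2 cytosolic starts in the first 300 bp, 17 and 6 starts in the first 1000 bp, and 0 cytosolic starts from 500 bp before to 500 bp after the start codon. The H3K4me2 centre lay downstream in 6 of 6 cytosolic genes and 1 of 1 mitochondrial gene without those peaks, in 2 of 2 mitochondrial genes at a score of at least 100, and in 2 of 5 with 500 bp peaks. These shifts follow from fewer peaks, narrower peaks or another window by construction. Shares of all genes under other peak limits, peak widths or windows were not computed, so those counts have no background beside them. No paired analysis was possible because each mark has 1 library, and no library could be left out. Depth outside peaks is unknown, so a missing peak limits what can be said of a gene.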
